A study of Mus musculus with 9 samples.

Results

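A set of 10 genes for heat shock proteins and chaperones was followed across cultures of mouse pro-B cells, by their symbols among the 23279 gene rows of the deposited expression tables. They were Hspa1a, Hspa1b, Dnajb1, Hsph1 and Hsp90aa1, treated here as inducible by heat shock, and Hspa8, Hsp90ab1, Hspa5, Hspd1 and Hspe1, treated as constitutive. All 10 symbols were found, 1 row each. The series compared 3 genotypes with 3 libraries each. The Ts1Rhr mice (FVB x C57BL/6 F1 background) carry an extra copy of a segment of mouse chromosome 16 that includes Hmgn1, a gene for a nucleosome-binding protein. The HMGN1_OE mice overexpress Hmgn1 on C57BL/6. The WT mice were wild-type littermates. Neither the promoter behind the overexpression nor the background of the WT mice is stated in the sources used here, and strain cannot be told apart from genotype. Bone marrow of mice aged 6 to 8 weeks grew for 7 days in methylcellulose with interleukin-7 before colonies were pooled and collected. The labels name neither a heat shock nor a drug treatment for any group.

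Chaperones bind unfolded or newly made proteins and help them fold. The cytosolic Hsp70 proteins (Hspa1a, Hspa1b, Hspa8) work in ATP-driven cycles with an Hsp40 partner such as Dnajb1, which delivers substrate, and an Hsp110 protein, Hsph1, which exchanges their nucleotide. Hsp90 proteins (Hsp90aa1, Hsp90ab1) act later on kinases and steroid receptors, Hspa5 (BiP) works in the endoplasmic reticulum, and Hspd1 and Hspe1 form the Hsp60 and Hsp10 rings of mitochondria. Under proteotoxic stress the factor Hsf1 binds heat shock elements and raises the inducible genes within minutes, while stress in the endoplasmic reticulum raises Hspa5 through another element.

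Values are FPKM, which are per transcript length, so levels of different genes can be compared. The authors deposited a raw and a normalised table. The normalised values are taken here as scaled to spike-in RNA, because the labels name spike-ins added to equal cell numbers and the spike-in medians of the libraries spread less there, but the sources used here do not state the step. Across libraries, 10720 to 10893 genes reached 1 raw FPKM, and sequencing depth is unknown. Raw Hmgn1 was 125 to 127 FPKM in Ts1Rhr, 71.9 to 77.2 FPKM in HMGN1_OE and 58.5 to 67.3 FPKM in WT cultures. The pro-B markers were all present, but the cultures were mixed. The 12 macrophage and monocyte markers found in the table summed to 3.60% to 4.04% of all raw FPKM in Ts1Rhr, 3.37% to 6.25% in HMGN1_OE and 5.26% to 6.63% in WT libraries. The 12 pro-B markers summed to 0.268% to 0.349% in Ts1Rhr, 0.248% to 0.365% in HMGN1_OE and 0.143% to 0.244% in WT libraries. The 8 stromal markers summed to 7.17 to 18.6 raw FPKM in Ts1Rhr, 5.88 to 17.1 in HMGN1_OE and 89.7 to 134 in WT libraries, so that both mutant groups lay wholly below WT. Of the 6 tested, 6 fell in Ts1Rhr and 5 in HMGN1_OE against WT on normalised FPKM. Of all tested genes, 0.57% and 0.0919% were called there, in either direction. The median log2 differences of the stromal markers were -2.94 and -3.04. On raw FPKM 6 and 2 of them fell, beside 8.85% and 0.0368% of all tested genes called. The 8 neutrophil markers summed to 64.5 to 164 raw FPKM in Ts1Rhr, 60.4 to 208 in HMGN1_OE and 152.0 to 251.1 in WT libraries. The 5 erythroid markers ran the other way, at 90.9 to 118 raw FPKM in Ts1Rhr, 55.4 to 92.0 in HMGN1_OE and 35.9 to 55.5 in WT libraries. The part of these other cells in the chaperone values was not tested. In such a mixture, fewer cells of a type and less RNA per cell cannot be told apart. WT replicate 1 stood apart, with 23.1% of its raw FPKM in 10 genes, against 12.4% to 18.1% in the other libraries. Ts1Rhr replicate 3 was the only library with Y-linked Ddx3y above 1 raw FPKM (41.8) and almost no Xist, so sex was not balanced.

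RefSeq promoter windows of the mouse assembly GRCm38.p6 were found for 7 of the 10 genes, and not for Hspa8, Hsp90aa1 and Hsp90ab1. Those of 4 genes are printed because they hold the elements through which heat shock and endoplasmic reticulum stress are known to act. Each line below gives the 150 bases before the transcript start, 5′ to 3′ on the gene's strand. Capitals mark a heat shock element in Hspa1a (chr17:34972157-34972306, minus strand), Hsph1 (chr5:149636337-149636486, minus strand) and Hspe1 (chr1:55087998-55088147, plus strand), and the endoplasmic reticulum stress element in Hspa5 (chr2:34771940-34772089, plus strand).
Hspa1a: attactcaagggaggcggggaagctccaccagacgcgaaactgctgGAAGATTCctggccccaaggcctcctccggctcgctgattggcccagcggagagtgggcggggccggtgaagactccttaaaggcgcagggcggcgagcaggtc
Hsph1: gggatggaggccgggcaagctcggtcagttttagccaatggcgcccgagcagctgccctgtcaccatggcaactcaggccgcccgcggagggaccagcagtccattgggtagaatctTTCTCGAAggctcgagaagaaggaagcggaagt
Hspe1: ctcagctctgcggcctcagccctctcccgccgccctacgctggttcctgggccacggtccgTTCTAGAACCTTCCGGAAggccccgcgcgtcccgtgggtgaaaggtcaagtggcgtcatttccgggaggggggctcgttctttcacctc
Hspa5: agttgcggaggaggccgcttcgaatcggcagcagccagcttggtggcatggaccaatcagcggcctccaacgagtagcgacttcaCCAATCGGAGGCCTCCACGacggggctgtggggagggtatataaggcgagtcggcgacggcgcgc

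The heat shock element was searched as GAANNTTC or TTCNNGAA in the 250 bases before each start. Both motifs read the same on the other strand, and successive matches may share a GAA or TTC. Of 32851 windows in the RefSeq table, 12.8% held a match, so a single match is common. Hspa1a and Hspa1b each held GAAGATTC at 104 to 97 bases before the start, and their 150 bases differed at 1 position. Hsph1 held TTCTCGAA at 33 to 26 bases before the start printed here and 54 to 47 bases before the other of its 2 listed starts.

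The mitochondrial pair held the longest heat shock match among the 7 genes with a window. Hspe1 had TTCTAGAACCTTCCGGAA at 89 to 72 bases before its start, and the window of 1 of the 2 Hspd1 starts held the same bases on the opposite strand, since the genes lie head to head. In all, 4 windows, or 0.0122% of all, held TTCNNGAA followed, after any 2 bases, by TTCNNGAA. These include the Hspe1 window and that Hspd1 window, which hold the same stretch of DNA. Dnajb1, an inducible gene, had no match in either of its windows. Hspa5 had no heat shock match, and its endoplasmic reticulum stress element, CCAAT and CCACG with any 9 bases between them, lay 65 to 47 bases before its start. That motif, searched on both strands, stood in 37 windows, or 0.113% of all. A match is a description of letters and does not show binding. The coordinates are not those of the files, which use mm9 per the submitters' processing notes.

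The most abundant chaperone transcripts in these cultures were cytosolic. Over the 9 libraries, Hspa8 averaged 1426 ± 131 raw FPKM and ranked 23 of 23279 rows. Hsp90aa1 averaged 1100.1 ± 365 raw FPKM (rank 39) and Hsp90ab1 594 ± 95.1 raw FPKM (rank 86). Thus an inducible gene stood among the most abundant of the set. Below them came Hspa5 with 283 ± 39.1, Hspd1 with 141 ± 22.3 and Hspe1 with 70.9 ± 11.5 raw FPKM. Hsph1 averaged 41.5 ± 7.45 and Dnajb1 32.2 ± 4.65 raw FPKM (SD over 9 libraries for all). Hspa1a and Hspa1b were far lower, at ranks 11349 and 11845.

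This order held within most libraries. The steps Hsp90aa1 over Hsp90ab1, Hsp90ab1 over Hspa5, Hspa5 over Hspd1, Hspd1 over Hspe1 and Hspe1 over Hsph1 each held in 9 of 9 libraries. Dnajb1 was 23.9 to 233 times Hspa1a on raw FPKM, also in 9 of 9. Some neighbours did not separate. Hsph1 exceeded Dnajb1 in 8 of 9 libraries and Hspa1a exceeded Hspa1b in 6 of 9. Hspa8 exceeded Hsp90aa1 in 7 of 9, in 1 of 3 Ts1Rhr libraries and in every HMGN1_OE and WT library.

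**Figure D1:**
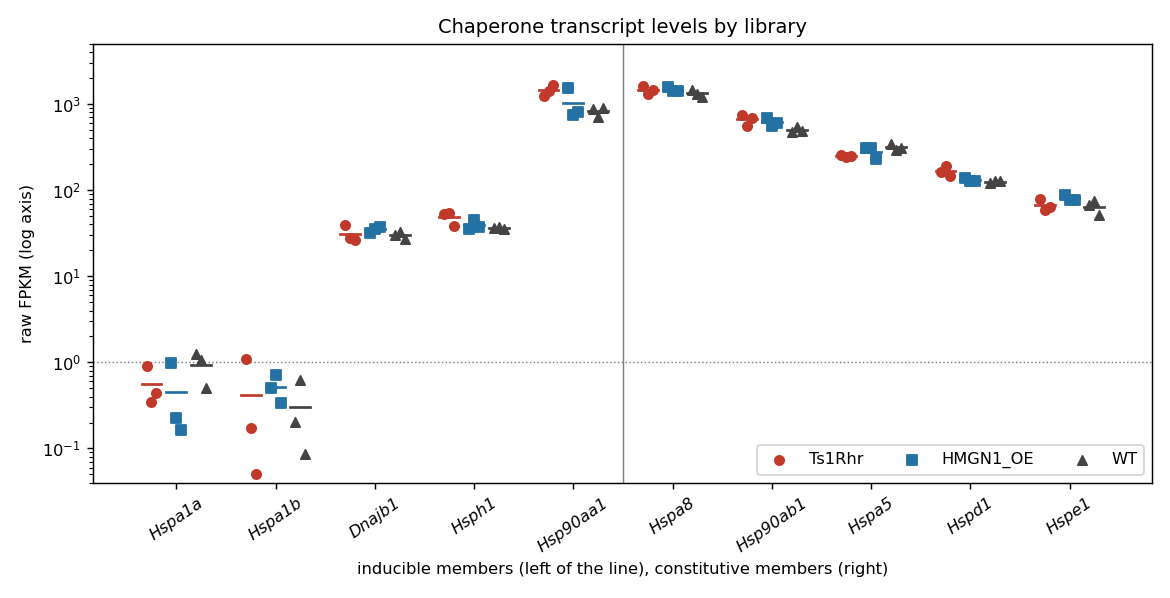
Raw FPKM of the 10 chaperone genes on a log axis, with 1 point per library, red circles for Ts1Rhr, blue squares for HMGN1_OE, grey triangles for WT and a bar at each group mean (n = 3). Hspa1a and Hspa1b sit around or below the dotted line at 1 FPKM, the other 8 genes lie between 26.7 and 1649 FPKM, and the Hspa1b point listed at 0 (Ts1Rhr replicate 3) is drawn near the foot of the axis.

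Hspa1a and Hspa1b encode the Hsp70 proteins that are classically made after heat shock, and both were near the bottom of the measured range. Hspa1a had 0.910, 0.347 and 0.444 raw FPKM in Ts1Rhr, 0.970, 0.225 and 0.162 raw FPKM in HMGN1_OE, and 1.25, 1.05 and 0.503 raw FPKM in WT cultures. Hspa1b had 1.09 and 0.173 raw FPKM in Ts1Rhr replicates 1 and 2 and was listed at 0 in replicate 3. It had 0.502, 0.704 and 0.340 raw FPKM in HMGN1_OE, and 0.203, 0.618 and 0.0871 raw FPKM in WT. All 3 groups overlapped for both genes. The genes share 58.8% of the 50-base windows of Hspa1a and 62.3% of those of Hspa1b, so reads may have been split between them and each value alone is uncertain.

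The sum of Hspa1a and Hspa1b does not depend on that split between them. It was 0.445 to 2.00 raw FPKM in Ts1Rhr, 0.502 to 1.47 raw FPKM in HMGN1_OE and 0.591 to 1.67 raw FPKM in WT libraries, which overlap. Hspa8 was 792 to 3316 times that sum in the 9 libraries. Both genes fell below the mean of 1 raw FPKM required for testing, which leaves 8 of the 10 genes in the tests. In a fit without that filter, on normalised FPKM, neither passed in any comparison (smallest limma adjusted p = 0.539).

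Of the inducible genes with clear transcript, Dnajb1 did not separate the groups. It had 39.4, 28.0 and 26.7 raw FPKM in Ts1Rhr, 31.7, 35.7 and 37.7 raw FPKM in HMGN1_OE, and 29.9, 33.0 and 27.3 raw FPKM in WT. The highest of the 9 libraries was Ts1Rhr replicate 1 and the lowest was Ts1Rhr replicate 3. The Ts1Rhr against WT log2 difference was 0.06 ± 0.28 (SE) on normalised FPKM, with an adjusted p of 0.929. Its 95% interval, -0.53 to 0.65, leaves room for a change in either direction.

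Hsph1 was higher in Ts1Rhr on raw FPKM than in WT in every library, without passing the test. It had 53.3, 53.9 and 38.5 raw FPKM in Ts1Rhr, 35.8, 45.4 and 37.2 raw FPKM in HMGN1_OE, and 36.8, 37.1 and 35.6 raw FPKM in WT. The lowest Ts1Rhr library was only just above the WT range, and on normalised FPKM the groups overlapped. The log2 difference of Ts1Rhr against WT was 0.38 ± 0.28 (SE) on normalised FPKM, with an adjusted p of 0.460. On raw FPKM it was 0.39 ± 0.16 (SE), with an adjusted p of 0.125.

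Hsp90aa1, the inducible Hsp90, gave the widest spread between libraries of the 8 tested genes on raw FPKM. It had 1249.9, 1428 and 1649 raw FPKM in Ts1Rhr, 1529, 746 and 814 raw FPKM in HMGN1_OE, and 869, 711 and 904 raw FPKM in WT. Every Ts1Rhr library lay above every WT library, and HMGN1_OE replicate 1 stood with the Ts1Rhr libraries while the other two stood with WT. On normalised FPKM the values were 1015, 1328 and 1542 in Ts1Rhr, 1841, 1104 and 793 in HMGN1_OE, and 1304, 839 and 701 in WT. There WT replicate 1 fell inside the Ts1Rhr range.

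The Ts1Rhr against WT log2 difference of Hsp90aa1 was 0.48 ± 0.42 (SE) on normalised FPKM (adjusted p = 0.535). On raw FPKM it was 0.80 ± 0.26 (SE), a 1.74-fold difference with an unadjusted p of 0.0111 and an adjusted p of 0.0733. Leaving out HMGN1_OE replicate 1, which shares in the estimate of the spread, brought the raw adjusted p to 0.0403. This was the only setting of those run in which any of the 8 genes passed. Against HMGN1_OE, the log2 difference of Ts1Rhr was 0.12 ± 0.42 (SE) on normalised FPKM (adjusted p = 0.997).

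Hspa8, the constitutive Hsp70 of the cytosol, was among the steadiest genes on raw FPKM. It had 1611, 1309 and 1474 raw FPKM in Ts1Rhr, 1587, 1403 and 1440.4 raw FPKM in HMGN1_OE, and 1479, 1324 and 1208 raw FPKM in WT. The groups overlapped throughout. On normalised FPKM it had 1277, 1214 and 1377 in Ts1Rhr, 1925, 2094 and 1388 in HMGN1_OE, and 2267, 1584 and 934 in WT. The WT libraries thus spread more than 2-fold in the normalised table, with replicate 1 the highest of all 9 and replicate 3 the lowest. The log2 difference of Ts1Rhr against WT turned with the table, at -0.22 ± 0.43 (SE) on normalised FPKM and 0.13 ± 0.17 (SE) on raw FPKM, with adjusted p-values of 0.808 and 0.635. Without WT replicate 1 the normalised difference was 0.082.

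Hsp90ab1, the constitutive Hsp90, had 741, 558 and 699 raw FPKM in Ts1Rhr, 687, 554 and 604 raw FPKM in HMGN1_OE, and 477, 544 and 485 raw FPKM in WT. Neither mutant group overlapped with WT. In the normalised table both did, with 636, 525 and 646 normalised FPKM in Ts1Rhr, 784, 812 and 594 in HMGN1_OE, and 687, 630.4 and 377 in WT. The log2 difference against WT was 0.13 ± 0.35 (SE) in Ts1Rhr and 0.40 ± 0.35 (SE) in HMGN1_OE on normalised FPKM, with adjusted p-values of 0.859 and 0.650.

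Hspa5 was the only one of the 8 genes whose Ts1Rhr values lay entirely below WT, and it did so in both tables. It had 259.6, 241.0 and 253.0 raw FPKM in Ts1Rhr, 306.0, 309.5 and 228.1 raw FPKM in HMGN1_OE, and 345.5, 295.9 and 309.7 raw FPKM in WT. On normalised FPKM it had 240.6, 229.3 and 231.0 in Ts1Rhr, 330.8, 446.4 and 228.0 in HMGN1_OE, and 479.6, 333.2 and 241.6 in WT. The gap between Ts1Rhr and the lowest WT library was narrow there, and HMGN1_OE replicate 3 stood with Ts1Rhr. The log2 difference of Ts1Rhr against WT was -0.53 ± 0.33 (SE) on normalised FPKM (adjusted p = 0.378) and -0.33 ± 0.16 (SE) on raw FPKM (adjusted p = 0.173). Neither passed the test.

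The mitochondrial pair differed in how the groups stood. Hspd1 had 164, 189 and 147 raw FPKM in Ts1Rhr, 139, 128 and 129 raw FPKM in HMGN1_OE, and 122, 127 and 128 raw FPKM in WT. The Ts1Rhr libraries were above both other groups, which overlapped each other. Its log2 difference of Ts1Rhr against WT was 0.27 ± 0.28 (SE) on normalised FPKM (adjusted p = 0.605) and 0.40 ± 0.13 (SE) on raw FPKM (adjusted p = 0.0771). Hspe1, its partner from the neighbouring gene, had 79.8, 59.3 and 63.5 raw FPKM in Ts1Rhr, 88.5, 78.0 and 76.0 raw FPKM in HMGN1_OE, and 67.9, 74.4 and 51.2 raw FPKM in WT. For Hspe1 it was HMGN1_OE that lay above WT on raw FPKM, while Ts1Rhr overlapped with WT. The log2 difference of HMGN1_OE against WT was 0.49 ± 0.29 (SE) on normalised FPKM, with an adjusted p of 0.521, the lowest of the 8 genes in that comparison.

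Over the 8 tested genes, the log2 differences of HMGN1_OE against WT on normalised FPKM ran from -0.07 for Hspa5 to 0.49 for Hspe1, and 7 were above 0. Those of Ts1Rhr against HMGN1_OE ran from -0.48 for Hspe1 to 0.12 for Hsp90aa1, with adjusted p-values of 0.988 or more. On raw FPKM Hspd1 was 0.33 ± 0.13 (SE) higher in Ts1Rhr than in HMGN1_OE, with an adjusted p of 0.541. Both comparisons with WT share the WT libraries.

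Counted over the 8 tested genes, 0 passed the limma test in Ts1Rhr against WT on normalised FPKM, where 0.57% of all 10878 tested genes passed, 46 higher and 16 lower. On raw FPKM 0 of 8 passed against 8.85% of all genes, 467 higher and 496 lower. These shares rest on counts of 62 and 963 genes that single libraries decide: they were 4 without WT replicate 3 and 203 without HMGN1_OE replicate 1 on normalised FPKM, and 1 without Ts1Rhr replicate 3 or WT replicate 1 on raw FPKM. In HMGN1_OE against WT, 0 of 8 passed in either table, against 0.0919% on normalised and 0.0368% on raw FPKM. In Ts1Rhr against HMGN1_OE, 0 of 8 and 0% of all genes passed in both tables. At an unadjusted p under 0.05, on normalised FPKM, 0 of 8 genes passed in each comparison, beside 19.5% of all genes in Ts1Rhr against WT, 11.7% in HMGN1_OE against WT and 4.37% in Ts1Rhr against HMGN1_OE.

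At an unadjusted p under 0.05 on raw FPKM, 4 of 8 genes passed in Ts1Rhr against WT, beside 30.9% of all tested genes. They were Hsp90aa1, Hspd1, Hsph1 and Hsp90ab1, all higher. In HMGN1_OE against WT 0 of 8 passed beside 14.6%, and in Ts1Rhr against HMGN1_OE 1 of 8, Hspd1, beside 8.85%. The same 4 genes lay above WT in every Ts1Rhr library on raw FPKM, where 19.1% of all tested genes did, and 0 of 8 did on normalised FPKM, where 21.7% did. Below WT lay Hspa5 alone, 1 of 8 in each table, beside 18.5% on raw and 8.43% on normalised FPKM. In HMGN1_OE, 2 of 8 lay above WT on raw FPKM (Hsp90ab1 and Hspe1), beside 9.81% of all genes, and 0 of 8 on normalised FPKM, beside 16.6%. Below WT in HMGN1_OE lay 0 of 8 in either table, beside 8.25% on raw and 0.8% on normalised FPKM.

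Between the mutant groups, 1 of 8 genes, Hspd1, lay higher in every Ts1Rhr than in every HMGN1_OE library on raw FPKM, beside 6.89% of all tested genes, and 0 of 8 lay lower, beside 5.99%. On normalised FPKM 0 of 8 lay higher, beside 1.79%. Lower there lay 1 of 8, Hspa8, with 1377 normalised FPKM in the highest Ts1Rhr library against 1388 in the lowest HMGN1_OE library, beside 6.6% of all genes.

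The scale of the tables bears on these signs. The median of all tested genes lay at a log2 difference of 0.12 in Ts1Rhr against WT and 0.21 in HMGN1_OE against WT on normalised FPKM, and at 0.01 in both on raw FPKM. The median of the 3 tested inducible genes in Ts1Rhr against WT was 0.38 on normalised and 0.39 on raw FPKM. That of the 5 constitutive genes was 0.01 on normalised and 0.13 on raw FPKM.

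**Figure D2:**
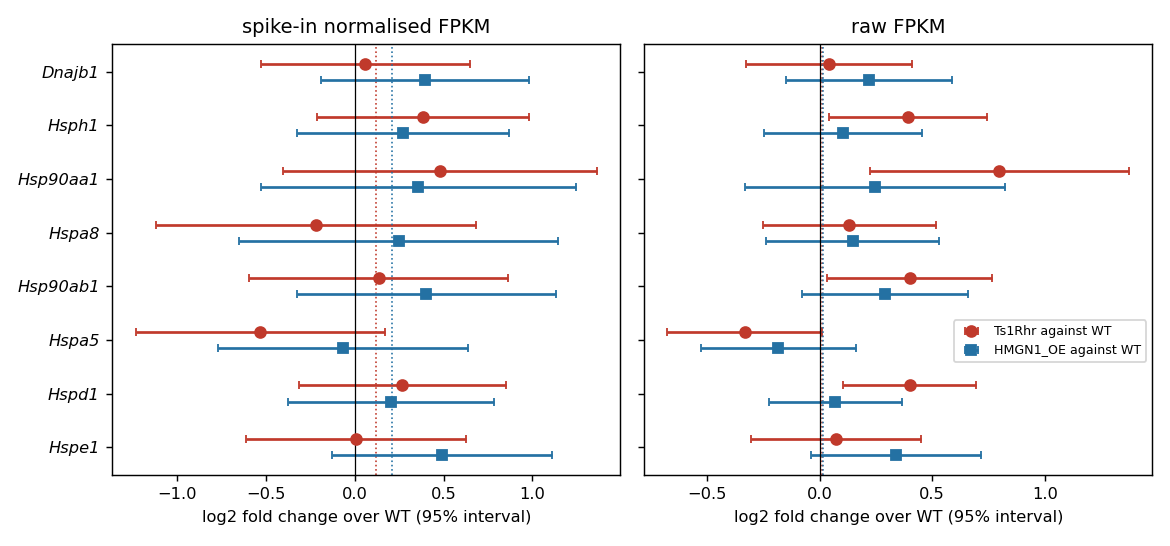
Log2 difference over WT of the 8 tested chaperone genes, with Ts1Rhr in red circles and HMGN1_OE in blue squares, on spike-in normalised FPKM (left) and raw FPKM (right). Bars are 95% intervals of the limma fit and dotted lines mark the median of all tested genes in the matching colour; all intervals include 0 on the left, and on the right those of Ts1Rhr for Hsph1, Hsp90aa1, Hsp90ab1 and Hspd1 lie above 0.

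Ratios between 2 genes in the same library do not depend on any 1 factor per library. They were not tested, and an exact permutation test on 3 against 3 libraries cannot give a p below 0.1. Hspa8 over Hspa5, cytosolic against endoplasmic reticulum Hsp70, was 6.20, 5.43 and 5.82 in Ts1Rhr, 5.18, 4.53 and 6.32 in HMGN1_OE, and 4.28, 4.47 and 3.90 in WT on raw FPKM. Both mutant groups lay wholly above WT. On normalised FPKM the ranges were 5.30 to 5.96 in Ts1Rhr, 4.69 to 6.09 in HMGN1_OE and 3.86 to 4.75 in WT, so that only Ts1Rhr stayed clear of WT.

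The other ratios ordered the groups differently. Hsp90aa1 over Hsp90ab1 was 1.69 to 2.56 in Ts1Rhr, 1.35 to 2.23 in HMGN1_OE and 1.31 to 1.87 in WT on raw FPKM. Hspd1 over Hspe1 was 2.06 to 3.20 in Ts1Rhr, 1.57 to 1.70 in HMGN1_OE and 1.70 to 2.51 in WT. HMGN1_OE lay wholly below Ts1Rhr in this ratio, and below WT by a narrow gap (highest 1.698 against lowest 1.703). On normalised FPKM the ratio was 1.96 to 3.15 in Ts1Rhr, 1.64 to 1.68 in HMGN1_OE and 1.76 to 2.47 in WT, with HMGN1_OE again lowest. Hsph1 over Dnajb1, exchange factor against Hsp40, was 1.35 to 1.92 in Ts1Rhr, 0.985 to 1.27 in HMGN1_OE and 1.12 to 1.30 in WT on raw FPKM. Ts1Rhr lay above both other groups, and did so too on normalised FPKM, at 1.33 to 1.90 against 0.982 to 1.28 in HMGN1_OE and 1.14 to 1.30 in WT.

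**Figure D3:**
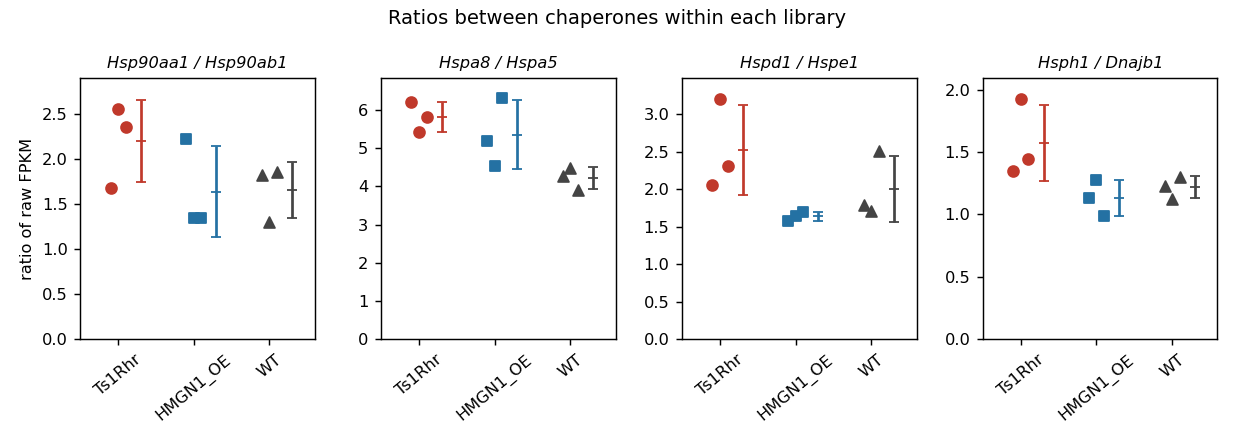
Ratios of raw FPKM between pairs of chaperone genes within each library, in Ts1Rhr (red circles), HMGN1_OE (blue squares) and WT (grey triangles), with the mean and SD of 3 libraries beside the points and axes that start at 0. Hspa8 over Hspa5 is 5.43 to 6.20 in Ts1Rhr against 3.90 to 4.47 in WT, while Hsp90aa1 over Hsp90ab1 overlaps among all groups.

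Together the 10 genes took 0.848% to 0.934% of all raw FPKM in Ts1Rhr, 0.657% to 0.886% in HMGN1_OE and 0.580% to 0.636% in WT libraries. Both mutant groups lay above WT. The share also moves with other abundant transcripts: the macrophage and monocyte share was lower in every Ts1Rhr than in every WT library, and the 10 highest genes took 12.4% to 14.5% of raw FPKM in Ts1Rhr, 12.5% to 18.0% in HMGN1_OE and 17.4% to 23.1% in WT. Their part in the share was not tested.

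Inducible and constitutive genes were also set against each other within each library, as the mean log2 normalised FPKM of the 5 inducible genes minus that of the 5 constitutive genes. The difference averaged -4.42 ± 0.42 in Ts1Rhr, -4.60 ± 0.08 in HMGN1_OE and -4.68 ± 0.21 in WT (SD, n = 3 each). The mean of the inducible genes was thus lower in every library, though inducible Hsp90aa1 itself exceeded Hsp90ab1 in every library on raw FPKM. The groups overlapped in this difference. Hspa1a and Hspa1b set most of that gap, and without them the difference was -1.21 ± 0.10 in Ts1Rhr, -1.50 ± 0.07 in HMGN1_OE and -1.58 ± 0.15 in WT. In that form the Ts1Rhr libraries, at -1.32 to -1.13, lay above the WT libraries, at -1.67 to -1.41. On raw FPKM with all 10 genes, Ts1Rhr minus WT was -0.04, against 0.26 on normalised FPKM.

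The partner genes of the Hsp90 cycle stood mostly above WT in Ts1Rhr. Of 14 Hsp90 co-chaperones tested, 13 had a positive log2 difference in Ts1Rhr against WT in both tables. Their median was 0.26 on normalised and 0.24 on raw FPKM, beside 0.12 and 0.01 over all tested genes. Above that median of all tested genes lay 10 of 14 on normalised and 13 of 14 on raw FPKM. On normalised FPKM 0 of 14 passed the limma test (3 of 14 at an unadjusted p under 0.05, beside 19.5% of all genes), and on raw FPKM 4 of 14 rose and 0 fell, beside 8.85% of all genes called in either direction. These 4 were named after their values were seen.

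Fkbp4, an immunophilin that joins Hsp90 to steroid receptors, had 117, 135 and 121 raw FPKM in Ts1Rhr, 128, 85.0 and 104 raw FPKM in HMGN1_OE, and 73.6, 80.5 and 71.2 raw FPKM in WT. Fkbp5, a related immunophilin, had 10.9, 11.9 and 12.3 raw FPKM in Ts1Rhr, 9.18, 9.34 and 11.8 raw FPKM in HMGN1_OE, and 6.66, 7.28 and 7.43 raw FPKM in WT. For both, every library of either mutant group was above every WT library on raw FPKM. The log2 differences of Ts1Rhr against WT on raw FPKM were 0.73 ± 0.16 (SE) for Fkbp4 and 0.71 ± 0.15 (SE) for Fkbp5, each with an adjusted p of 0.0325. On normalised FPKM they were 0.63 ± 0.26 and 0.88 ± 0.24 (SE), with adjusted p-values of 0.202 and 0.0927.

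The other co-chaperones that rose on raw FPKM were Ppid, a cyclophilin bound to Hsp90, and Ptges3, the p23 protein that holds Hsp90 in its closed state. Ppid had 47.7, 51.3 and 46.1 raw FPKM in Ts1Rhr, 37.0, 45.0 and 44.2 raw FPKM in HMGN1_OE, and 31.3, 33.3 and 29.2 raw FPKM in WT. Its log2 difference of Ts1Rhr against WT was 0.63 ± 0.13 (SE) with an adjusted p of 0.0325. Ptges3 had 116, 111 and 119 raw FPKM in Ts1Rhr, 97.0, 86.4 and 89.8 raw FPKM in HMGN1_OE, and 75.7, 80.5 and 84.6 raw FPKM in WT. Its log2 difference of Ts1Rhr against WT was 0.52 ± 0.12 (SE) with an adjusted p of 0.0355. For Ppid and Ptges3 too, every HMGN1_OE library was above every WT library on raw FPKM, as in 9.81% of all tested genes. In place of 4, the count of co-chaperones that rose on raw FPKM was 0 without Ts1Rhr replicate 1, 2 or 3, 0 without WT replicate 1 or 3, and 0 when genes of low FPKM were kept in. In HMGN1_OE against WT 0 of 14 passed in either table, and 14 were above 0 on normalised and 11 on raw FPKM. The median of all tested genes was 0.21 on normalised and 0.01 on raw FPKM there, and 11 of 14 lay above it in each table. In each, 4 of 14 were under an unadjusted p of 0.05, beside 11.7% and 14.6% of all genes.

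The other cytosolic Hsp70 and Hsp40 partners were split in direction. Of 19 tested, 11 were above 0 in Ts1Rhr against WT on normalised FPKM with a median log2 difference of 0.10, and 0 passed (2 at an unadjusted p under 0.05, beside 19.5% of all genes). On raw FPKM 1 of 19 fell, beside 8.85% of all genes called, and without any 1 of the 6 Ts1Rhr and WT libraries 0 fell. It was Bag3, a nucleotide exchange factor that is itself a heat shock gene, with 9.70, 8.40 and 8.37 raw FPKM in Ts1Rhr, 12.5, 15.2 and 7.61 raw FPKM in HMGN1_OE, and 18.7, 15.5 and 16.3 raw FPKM in WT. Its log2 difference was -0.92 ± 0.22 (SE, adjusted p = 0.0374) on raw and -0.80 ± 0.31 (SE, adjusted p = 0.179) on normalised FPKM. Bag2, a related co-chaperone, lay the other way at 8.80, 5.44 and 4.54 raw FPKM in Ts1Rhr, 2.82, 2.38 and 4.52 raw FPKM in HMGN1_OE and 3.33, 3.07 and 2.65 raw FPKM in WT (adjusted p = 0.115 on normalised FPKM).

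The factors that drive the heat shock genes were measured in all groups and gave no call. Hsf1, the main stress-activated factor, had 8.87, 4.61 and 8.15 raw FPKM in Ts1Rhr, 8.94, 8.88 and 7.85 raw FPKM in HMGN1_OE, and 8.00, 7.13 and 6.70 raw FPKM in WT. Its log2 difference against WT was 0.12 ± 0.30 (SE, adjusted p = 0.854) in Ts1Rhr and 0.44 ± 0.30 (SE, adjusted p = 0.573) in HMGN1_OE on normalised FPKM. Hsf2 was 0.17 ± 0.24 (SE, adjusted p = 0.709) in Ts1Rhr on the same scale. Of the 2 tested factors 0 passed, beside 0.57% of all tested genes in Ts1Rhr against WT. Of 6 genes grouped by name as small heat shock proteins, 2 were tested and 0 passed, beside the same 0.57% of all tested genes. The nearer was Hspb11, with a log2 difference of 0.49 ± 0.44 (SE, adjusted p = 0.549) in Ts1Rhr against WT.

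The endoplasmic reticulum chaperones stood mostly on the side of Hspa5 in Ts1Rhr against WT. Of 16 tested, 1 was above 0 in Ts1Rhr against WT on normalised FPKM and 4 on raw FPKM, with medians of -0.21 and -0.18 against 0.12 and 0.01 over all tested genes, and 0 passed in either table (2 of 16 at an unadjusted p under 0.05 on raw and 0 on normalised FPKM, beside 30.9% and 19.5% of all genes). P4hb, a protein disulfide isomerase, had 231.5, 234.7 and 231.7 raw FPKM in Ts1Rhr, 268.2, 268.5 and 227.5 raw FPKM in HMGN1_OE, and 343.0, 273.7 and 319.2 raw FPKM in WT. Its log2 difference of Ts1Rhr against WT was -0.61 ± 0.32 (SE, adjusted p = 0.294) on normalised FPKM. Pdia6, another isomerase, gave -0.50 ± 0.28 (SE, adjusted p = 0.334). In HMGN1_OE against WT, 9 of the 16 were above 0 on normalised and 3 on raw FPKM, with medians of 0.01 and -0.13. As a summed share of raw FPKM the groups overlapped, at 0.405% to 0.429% in Ts1Rhr, 0.392% to 0.444% in HMGN1_OE and 0.409% to 0.428% in WT. The summed raw FPKM of macrophage and monocyte markers was also lower in Ts1Rhr than in WT in every library, with 0 of the 12 above 0 and a median log2 difference of -1.12 on normalised FPKM, and its part in the endoplasmic reticulum values was not tested.

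Regulators of the unfolded protein response, which raise these chaperones, gave no call. Of 8 tested, 3 were above 0 in Ts1Rhr against WT on normalised FPKM, with a median of -0.11. There 0 of 8 passed, beside 0.57% of all tested genes. Ern1, the sensor that splices Xbp1, had a log2 difference of -0.63 ± 0.37 (SE, adjusted p = 0.346), and Atf4, a translationally controlled factor, differed by -0.41 ± 0.30 (SE, adjusted p = 0.989) between Ts1Rhr and HMGN1_OE.

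Among 11 mitochondrial chaperones and proteases 0 passed in any comparison in either table. Of all tested genes, 0.57% on normalised and 8.85% on raw FPKM passed in Ts1Rhr against WT. At an unadjusted p under 0.05 in that comparison, 0 of 11 passed on normalised and 2 on raw FPKM, beside 19.5% and 30.9%. The median log2 difference of Ts1Rhr against WT was 0.07 on normalised and -0.05 on raw FPKM. Hspa9, the mitochondrial Hsp70 that hands proteins to Hspd1, was 0.07 ± 0.30 (SE, adjusted p = 0.924) there. Clpp, the matrix protease, and Hscb, a co-chaperone for iron-sulfur clusters, were the lowest by unadjusted p, at -0.66 ± 0.27 and -0.68 ± 0.29 (SE) in Ts1Rhr against HMGN1_OE, and both had an adjusted p of 0.989. Of 13 cytosolic chaperonin and prefoldin subunits, which fold actin and tubulin, 0 were called in Ts1Rhr against WT. The shares of all tested genes called were 0.57% on normalised and 8.85% on raw FPKM. The medians of the subunits were 0.04 on normalised and 0.16 on raw FPKM. Cct3 was lowest by unadjusted p, with a log2 difference of -0.49 ± 0.29 (SE, adjusted p = 0.989) in Ts1Rhr against HMGN1_OE, and Cct7 followed, with 0.41 ± 0.29 (SE, adjusted p = 0.590) in HMGN1_OE against WT.

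Immediate early genes, which like the heat shock genes respond within minutes to handling of cells, summed to 267 to 342 raw FPKM in Ts1Rhr, 240 to 459 in HMGN1_OE and 426 to 583 in WT libraries. Ts1Rhr lay wholly below WT and HMGN1_OE overlapped with it. The stromal sums given above lay below WT in both mutant groups, and the macrophage and monocyte share did so in Ts1Rhr only. The neutrophil sums overlapped with WT in both mutant groups. The part of these cells in the immediate early values was not tested. Of 11 tested, 1 was above 0 in Ts1Rhr and 2 in HMGN1_OE against WT on normalised FPKM, with medians of -0.81 and -0.41. In either comparison 0 passed on normalised FPKM (4 and 1 at an unadjusted p under 0.05, beside 19.5% and 11.7% of all genes). On raw FPKM 0 passed in HMGN1_OE, and 2 of 11 fell in Ts1Rhr against WT, Atf3 and Dusp1, beside 8.85% of all genes called. That count was 0 without any 1 of the 6 Ts1Rhr and WT libraries, and 1, 3 and 4 without HMGN1_OE replicates 1, 2 and 3. Fos, the archetype, had 46.0, 46.5 and 21.7 raw FPKM in Ts1Rhr, 41.1, 93.5 and 23.4 raw FPKM in HMGN1_OE, and 124, 67.6 and 92.4 raw FPKM in WT, with an adjusted p of 0.148 in Ts1Rhr against WT on normalised FPKM. Among the inducible genes, Hsph1 and Hsp90aa1 stood above WT in Ts1Rhr on raw FPKM, while Dnajb1, Hspa1a and Hspa1b overlapped with it. On normalised FPKM Hsph1 and Hsp90aa1 overlapped with WT too. Inducible and immediate early genes were not tested against each other.

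**Figure D4:**
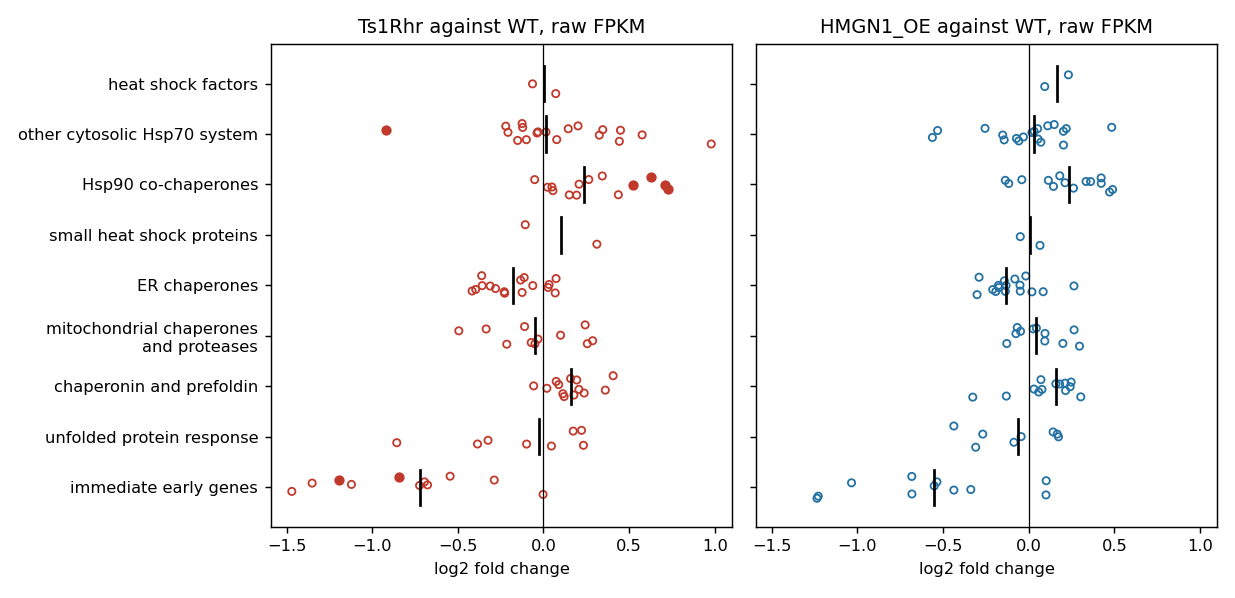
Log2 difference of each tested partner gene on raw FPKM, in Ts1Rhr against WT (left) and HMGN1_OE against WT (right), 1 row per gene group with a bar at the median. Filled points passed the limma test at an adjusted p of 0.05: on the left 4 Hsp90 co-chaperones on the right of 0, and Bag3 and 2 immediate early genes on the left of 0; on the right there were 0.

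The tested genes whose raw FPKM over the 9 libraries were most like the mean standardised level of Hspa1a, Hspa1b, Dnajb1 and Hsph1 were Lipt2 (Pearson r = 0.94), 2810468N07Rik (0.90), Mrps10 (0.90), Cox7a2 (0.88) and Tubd1 (0.85). They were chosen for that likeness among the tested genes outside the set, so r is given as a description with no p. Depth is unknown and the cell makeup differed among the 9 libraries, and the part of either in these correlations was not tested. Hspa1a and Hspa1b enter near the bottom of their range. The averaged genes did not share 1 pattern. Pearson r between them ran from -0.19 (Hspa1a with Hsph1) to 0.86 (Hspa1b with Dnajb1). Hspa1a gave 0.19 with Hspa1b and -0.11 with Dnajb1.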

How the data were processed

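RNA from equal cell numbers of 9 pro-B cultures received 1 µl of ERCC spike-in RNA diluted 1 to 1000, and polyadenylated RNA was sequenced, per the labels' protocols. The authors deposited FPKM values in 2 tables, raw and normalised. Per the submitters' processing notes, HISAT, Cufflinks 2.0.0 and mm9 were used. The step from raw to normalised FPKM is not stated in the sources used here. The labels state that spike-ins were added for scaling per cell, and the library medians of 26 spike-ins ranged over 0.744 in the raw and 0.133 in the normalised table (log2). No normalised value is 0, and rows at 0 in every raw column lie at 0.0891 to 0.11 there.

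Of 23398 rows, 92 spike-ins and 27 date-like names were left out. Tests covered the 10878 genes whose raw FPKM averaged at least 1, and used limma 3.58.1 (R 4.3.3, intensity trend, all 9 libraries, 1 mean per group, two-sided, Benjamini-Hochberg, threshold 0.05), on log2 of the normalised FPKM or on log2(raw FPKM + 0.1). Such folds understate changes of low genes. FPKM are not counts, so depth is unknown and no count test was run. The script was tested on simulated data. The labels call the samples biological replicates without naming animals, so a p-value reflects only how far these samples spread, which may be technical.

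Members and gene lists were chosen with earlier results of these data known. From each partner list, genes past the threshold on normalised FPKM were to be named, and otherwise at most 2 by smallest unadjusted p over the 3 comparisons. Alternatives were the raw table, 1 spike-in factor per library, a pseudocount of 1, no filter or one at 5 FPKM, no trend, only the 2 groups compared, a replicate block and leaving out each library. Python 3.11.15 was used for descriptions.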

Additional observations from a re-analysis of the deposited data

How the results depend on the processing

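In 474 of 496 alternative values of the 8 tested chaperone genes the direction was as reported, and 22 were reversed, 19 of them by leaving out 1 library; the cause was not tested. In Ts1Rhr against WT, Hspa8 turned to 0.13 on raw FPKM and 0.11 with 1 spike-in factor per library, and in Ts1Rhr against HMGN1_OE Hsp90ab1 turned to 0.11 on raw FPKM. With each library left out in turn, log2 differences of Ts1Rhr against WT ranged from -0.56 to 0.082 (Hspa8), -0.13 to 0.30 (Hsp90ab1), -0.17 to 0.22 (Dnajb1; -0.13 to 0.15 on raw FPKM) and -0.32 to 0.20 (Hspe1; -0.086 to 0.18 on raw FPKM). In HMGN1_OE against WT they ranged from -0.094 to 0.55 (Hspa8) and -0.31 to 0.19 (Hspa5), and in Ts1Rhr against HMGN1_OE from -0.16 to 0.45 (Hsp90aa1), -0.068 to 0.37 (Hsph1) and -0.041 to 0.20 (Hspd1).

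The count of these genes past the threshold was 0 under each alternative run, except 0 to 1 on raw FPKM in Ts1Rhr against WT with a library left out. The 4 Hsp90 co-chaperones that rose on raw FPKM became 0 on normalised FPKM, 0 without a filter and 0 to 4 with a library left out. Inducible minus constitutive, HMGN1_OE minus WT, was 0.07, -0.11 with 1 spike-in factor per library, -0.08 on raw FPKM and -0.02 with a pseudocount of 1. Ts1Rhr minus WT was 0.26, against -0.03 with 1 spike-in factor and -0.04 on raw FPKM; leaving out a library gave -0.05 to 0.14 for HMGN1_OE and 0.03 to 0.45 for Ts1Rhr. Calls over all genes in Ts1Rhr against WT were 62, against 963 on raw FPKM, 267 with only the 2 groups compared and 20 without a filter. In HMGN1_OE against WT they were 10, against 4, 18 and 20, and 19 with a pseudocount of 1 or no trend. Leaving out 1 library gave 4 to 203 calls in Ts1Rhr against WT on normalised FPKM (41, 5 and 12 without Ts1Rhr replicates 1, 2 and 3, 203, 125 and 74 without HMGN1_OE replicates 1, 2 and 3, 17, 34 and 4 without WT replicates 1, 2 and 3). On raw FPKM it gave 293, 3 and 1 without Ts1Rhr replicates 1, 2 and 3, 1, 535 and 2 without WT replicates 1, 2 and 3, and 737 to 1276 without an HMGN1_OE library. In HMGN1_OE against WT it gave 1 to 17 on normalised and 0 to 12 on raw FPKM.

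Nothing in the labels ties equal replicate numbers together, and same-numbered libraries correlated at -0.13 to 0.16 in their deviations from the group means. With the replicate block, 0 chaperone genes passed in each comparison, 1 Hsp90 co-chaperone rose on raw FPKM, and calls over all genes in Ts1Rhr against WT were 119 on normalised and 314 on raw FPKM.

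FPKM give no depth, so values near or below 1 FPKM, as for Hspa1a and Hspa1b, have unknown precision. Alternatives on raw FPKM with a library left out, a block or no filter, the co-chaperone count and the difference without Hspa1a and Hspa1b were added after the data were seen.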
